A study of Mus musculus with 6 samples.

Results

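The 10 genes described here mark the retinal pigment epithelium or make melanin: Rpe65, Lrat, Ttr, Mitf, Tyr, Tyrp1, Dct, Pmel, Mlana and Slc45a2. They were chosen by name, and every probe set that the array annotation gives to 1 of these genes alone was used. That gave 20 probe sets of the 34945 with a single gene symbol, and 10 genes of 18193. Ttr had 4 probe sets, Tyr and Tyrp1 3 each, Lrat, Mitf and Slc45a2 2 each, and Rpe65, Dct, Pmel and Mlana 1 each. Their levels were measured in retinas taken at birth from wildtype mice and from mice without cyclin D1 (labelled Cyclin D1 -/-), as 3 numbered pools of retinas of each genotype and 1 Affymetrix array per pool. The submitters asked how the loss of cyclin D1 changes the expression of genes that the protein binds. The strain, the coat colour, the knockout allele, the number of animals in a pool and whether pigment epithelium was left on the retina could not be read from the labels. Nothing says that pools came from separate litters. The p-values therefore reflect only how far these pools scatter, which may be partly technical.

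The pigment epithelium is a single sheet of melanin-filled cells that lies against the photoreceptors, arises from the same optic cup as the neural retina, and is usually peeled away when a retina is dissected. It restores the light-sensitive form of vitamin A in the visual cycle, in which Lrat esterifies retinol and Rpe65 turns the ester into the visual isomer. Melanin is made in melanosomes by the related enzymes Tyr, Tyrp1 and Dct on fibrils of Pmel, and the transcription factor Mitf drives these genes by binding a short motif, the M-box, before their start sites. In the developing optic cup the outer layer keeps Mitf and becomes pigmented, while the inner layer turns Mitf off and becomes neural retina. Melanocytes of the choroid, which come from the neural crest, use the same melanin genes, so those genes do not tell the 2 cell types apart, whereas in the eye Rpe65 and Lrat belong to the pigment epithelium.

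The stretches before the start sites of the tyrosinase family enzymes are printed because all 3 hold a match to the core of the M-box, TCATGTG, in capitals. They are from RefSeq, build GRCm38.p6, written 5′ to 3′ on the strand of the gene. The stretch of Tyr is chr7:87493513-87493612 on the minus strand (bases -100 to -1 from the start site), that of Tyrp1 is chr4:80834113-80834212 on the plus strand (-100 to -1) and that of Dct is chr14:118052387-118052486 on the minus strand (-240 to -141), where the first match reads on the other strand, as CACATGA.
Tyr: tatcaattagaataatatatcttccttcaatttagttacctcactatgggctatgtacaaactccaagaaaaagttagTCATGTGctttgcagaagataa
Tyrp1: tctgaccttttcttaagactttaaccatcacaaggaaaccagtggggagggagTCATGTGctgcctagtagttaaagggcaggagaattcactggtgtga
Dct: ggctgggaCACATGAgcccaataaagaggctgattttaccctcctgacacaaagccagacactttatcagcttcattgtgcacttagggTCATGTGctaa

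TCATGTG or its reverse complement lay at bases -22 to -16 in Tyr, at -47 to -41 in Tyrp1, and at -232 to -226 and -151 to -145 in Dct. Of all 32851 windows of 300 bases (250 before and 50 after a start site), 3.77% hold it on either strand. Windows were given for Rpe65, Lrat, Mitf (3 start sites), Tyr, Tyrp1 and Dct, and TCATGTG was in 3 of these 8. The shorter core CATGTG, which every TCATGTG contains, was in 4 of the 8 (Rpe65 as well) and in 14.2% of all windows. The E-box CACGTG was in none of the 8 and in 7.15% of all. TAATCC, a motif of the homeodomain factors Otx2 and Crx, was in 4 (Rpe65, Tyrp1, Dct and 1 start site of Mitf) and in 7.06% of all. A match describes the letters and not binding, which was not measured here.

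Ccnd1, the targeted gene, stood between 12.35 and 12.56 in the wildtype pools and between 8.81 and 8.92 in the knockout pools, as the labels name them. Levels throughout are log2 of the quantile-normalised signal plus 16, and differences are knockout minus wildtype on this scale, with the standard deviation (SD) over n = 3 pools. The median deposited signal of an array was 40.6 to 50.5 units. Pools 1 and 2 of a genotype were more alike (SD of their log2 difference 0.21 and 0.22) than any other pair (0.28 to 0.52). The arrays were also split by rank into 2 sets of 3 by their BioB and BioC hybridisation controls, a cut that follows no gap. The brighter set is wildtype pool 3 and knockout pools 1 and 2 (mean log2 of the controls 9.82 to 10.15), and the other 3 arrays had 9.53 to 9.66. Within each of these sets, 1 array of a genotype stands against 2 of the opposite genotype. Neural retina was plainly present: Tubb3, a neuronal tubulin, averaged 10.23 ± 0.20 in wildtype pools.

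Of the 10 genes, 6 passed the filter that leaves out the dimmest 40% of genes (Ttr, Tyr, Tyrp1, Dct, Pmel and Slc45a2), and 4 did not (Rpe65, Lrat, Mitf and Mlana). Pmel fell in knockout retinas, the only 1 of the 6 with a call at an adjusted p under 0.1 in limma's fit over all 10916 genes, and none rose. Of all tested genes 4.66% were called, 2.63% as lower. Ttr had the largest difference, a 2.01-fold lower mean in knockout pools, but its adjusted p was 0.126. In a second limma fit that kept all 34945 probe sets, none of the 20 was called (1.51% of all were), 4 of the 20 had an unadjusted p under 0.05 (9.25% of all did), and in 2 of the 20 the genotypes did not overlap (14.6% of all). The median difference of the 20 probe sets was -0.02, against 0.01 over all probe sets. By their means 9 of the 20 were higher in knockout pools and 11 lower.

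**Figure D1:**
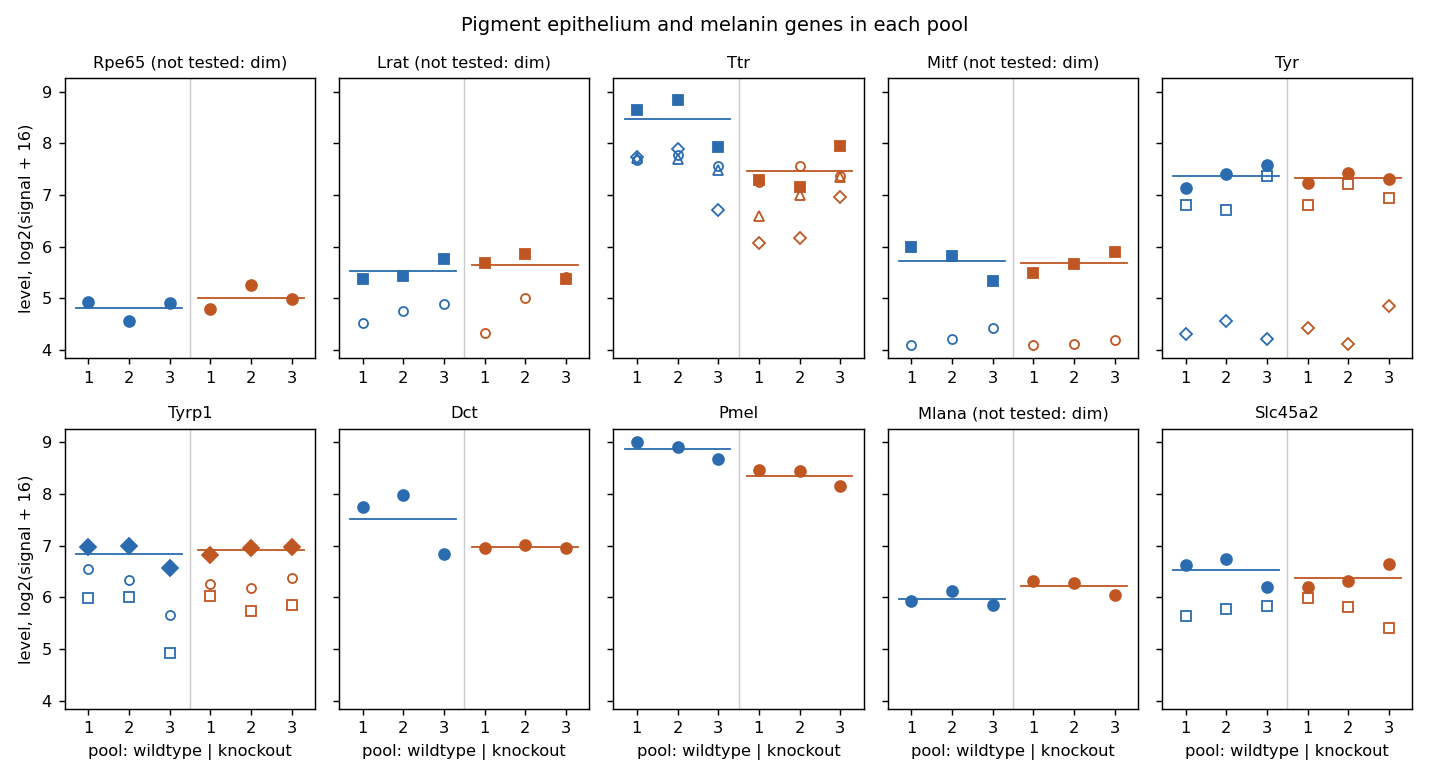
Level of each probe set, log2(signal + 16), in each of 3 wildtype pools (blue) and 3 knockout pools (orange), with 1 panel per gene, a symbol shape per probe set, filled symbols for the probe set that stands for the gene and lines for its group means. Pmel is separated by genotype, from 8.68 to 9.01 in wildtype and from 8.15 to 8.46 in knockout pools, while Dct and Tyrp1 have their lowest level in wildtype pool 3.

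The visual cycle genes that define the pigment epithelium were dim in every pool. The deposited signal of Rpe65, the isomerase of the visual cycle, was 13.5, 7.10 and 16.4 units in wildtype pools 1, 2 and 3 and 12.0, 23.4 and 15.2 in knockout pools 1, 2 and 3. All 6 values lie below the array medians, and the genotypes overlap. Its log2 difference was 0.21 (95% interval -0.20 to 0.61, limma adjusted p = 0.861 over all probe sets). For Lrat, the acyltransferase that makes the substrate of Rpe65, the brighter probe set read 23.4, 24.2 and 42.8 units in wildtype and 37.0, 45.3 and 24.2 in knockout pools. Its log2 difference was 0.11 (interval -0.35 to 0.57). The dimmer Lrat probe set gave 0.20 (interval -0.41 to 0.80), and over the 6 pools the 2 did not track each other (r = -0.09, a description over 6 arrays). No detection calls were used, so it cannot be said whether these signals lie above background.

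Ttr encodes transthyretin, the carrier of thyroid hormone and of retinol-binding protein, made by the pigment epithelium and the choroid plexus. Its brightest probe set stood at 8.65, 8.83 and 7.93 in wildtype pools 1 to 3 and at 7.30, 7.15 and 7.94 in knockout pools 1 to 3. Wildtype pools 1 and 2 were highest and knockout pools 1 and 2 lowest, while wildtype pool 3 and knockout pool 3 met at the same level. The means were 8.47 ± 0.48 and 7.46 ± 0.42, a difference of -1.0 (SE 0.28, interval -1.65 to -0.36, limma adjusted p = 0.126).

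All 4 Ttr probe sets pointed down, but by different amounts. A second one whose name, like that of the brightest, marks probes that may match other transcripts (suffix x_at) differed by -1.05 and followed it closely over the pools (r = 0.99 over 6 arrays). The s_at probe set, with 7.49 to 7.71 in wildtype and 6.59 to 7.34 in knockout pools, did not overlap and differed by -0.66 (unadjusted p = 0.0108, adjusted p = 0.285 in limma over all probe sets). The a_at probe set differed by only -0.27 (interval -0.57 to 0.03), with overlap. The call depended on single arrays: without wildtype pool 3 the difference of Ttr was -1.28 (limma adjusted p = 0.0127) and without knockout pool 3 it was -1.24 (adjusted p = 0.0939), and the range of adjusted p over the alternatives was 0.000492 to 0.883. Without wildtype pool 3, 1055 of all 10916 tested genes were called lower, against 287 with all pools. Within the sets of arrays the difference of Ttr was -0.70 and -0.80, brighter controls first. With the set as a block it was -0.75 (limma adjusted p = 0.00607), while a fit that merged pools 1 and 2 into their mean had an equal difference but an adjusted p of 0.883.

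Mitf itself was dim and did not differ detectably. Its brighter probe set stood at 6.0, 5.83 and 5.34 in wildtype and at 5.5, 5.66 and 5.90 in knockout pools, with wildtype pool 3 lowest and wildtype pool 1 highest. The difference was -0.04, and its interval of -0.54 to 0.47 allows a change of either sign. The other Mitf probe set, at 1.00 to 6.28 deposited units in all pools, lay near the floor of 1 unit and carries little information.

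**Figure D2:**
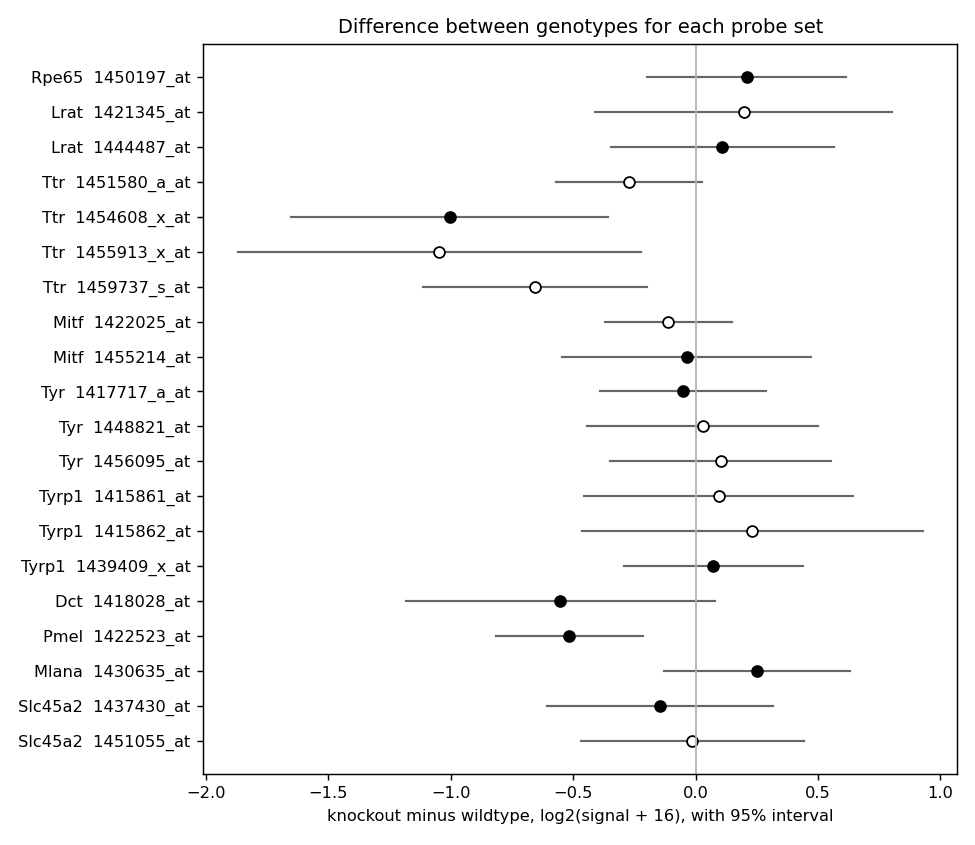
Knockout minus wildtype difference in log2(signal + 16) for each of the 20 probe sets, with its 95% interval from the limma fit over all probe sets (filled: the probe set that stands for its gene). Intervals of 15 probe sets with a difference under 0.3 in size cross 0, and those of Pmel and of 3 of the 4 Ttr probe sets lie below it.

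The melanin enzymes did not move as a group. Tyr, tyrosinase, which starts melanin synthesis and is the albino gene of mice, stood at 7.13, 7.40 and 7.58 in wildtype and at 7.24, 7.42 and 7.31 in knockout pools. The knockout pools lie inside the wildtype range, and the difference was -0.05 (interval -0.40 to 0.29, limma adjusted p = 0.961). Its second bright probe set differed by 0.03. The third Tyr probe set was near the floor, at 1.49 to 12.3 deposited units, differed by 0.10 and did not follow the others over the pools (r = -0.27 and -0.53 over 6 arrays). The sign of the Tyr difference turned under 4 of 20 alternatives, values as deposited among them.

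Tyrp1, which acts after tyrosinase and is the brown gene of mice, stood at 6.97, 6.99 and 6.57 in wildtype and at 6.81, 6.96 and 6.97 in knockout pools. Wildtype pool 3 was lowest and the other 5 pools ranged from 6.81 to 6.99. The difference was 0.07 (interval -0.29 to 0.44, limma adjusted p = 0.949). The probe set that gave it has the suffix x_at, and the other 2 differed by 0.09 and 0.23. The other Tyrp1 probe sets showed the low wildtype pool 3 more strongly, at 5.66 against 6.33 and 6.54 in wildtype pools 2 and 1, and at 4.92 against 6.01 and 5.98. Pairs of the 3 probe sets correlated at r = 0.85 to 0.93 over 6 arrays. All 3 were lowest in wildtype pool 3, but the order of the other 5 pools differed between them. Without wildtype pool 3 the difference was -0.063.

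Dct, dopachrome tautomerase, the slaty gene of mice, stood at 7.75, 7.98 and 6.84 in wildtype and at 6.96, 7.01 and 6.95 in knockout pools. The knockout pools were nearly equal, wildtype pools 1 and 2 were higher than all of them, and wildtype pool 3 was lower than all of them. The means of 7.53 ± 0.60 and 6.97 ± 0.03 differed by -0.55 (SE 0.27, interval -1.18 to 0.07, limma adjusted p = 0.460). Without wildtype pool 3 the difference was -0.89 (adjusted p = 0.00346, within a range of 0.00275 to 0.9998 over the alternatives). That fit called 1055 of all 10916 tested genes lower. Within the sets of arrays the sign turned, with 0.14 in the set with brighter controls and -0.92 in the other. The 3 enzymes, whose promoters are printed above, thus had their extremes in the same pool in opposite directions: wildtype pool 3 was highest for the 2 bright Tyr probe sets and lowest for Dct and all 3 Tyrp1 probe sets. Over the 20 probe sets wildtype pool 3 was lowest in 6 and highest in 3, and over all probe sets it was lowest in 27.9% and highest in 21.1%.

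**Figure D3:**
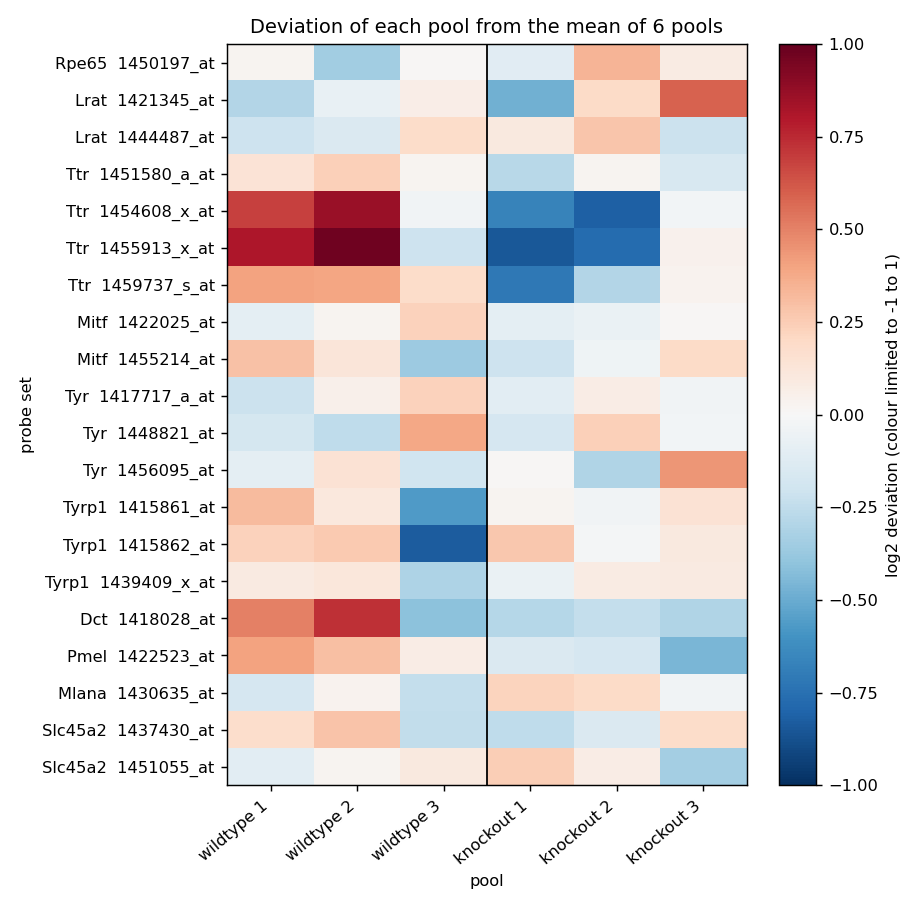
Deviation of each pool from the mean of the 6 pools, in log2, for each probe set (rows) and pool (columns), red above and blue below the mean, with the colour limited to -1 to 1. Dct and the Ttr probe sets are high in wildtype pools 1 and 2, Tyrp1 is low in wildtype pool 3, and the 2 bright Tyr probe sets are high there, while the dimmest Tyr probe set is not.

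Pmel, the protein that forms the fibrils on which melanin is laid down, stood at 9.01, 8.91 and 8.68 in wildtype and at 8.46, 8.44 and 8.15 in knockout pools. Every knockout pool was below every wildtype pool. The genotypes did not overlap, in either direction, in 20.0% of all tested genes. It fell from 8.87 ± 0.17 to 8.35 ± 0.17, which is 1.43-fold (log2 difference -0.52, SE 0.13, interval -0.82 to -0.22, limma adjusted p = 0.0948). As deposited, the signals were 487, 422 and 366 units in wildtype and 341, 374 and 276 in knockout pools, so that knockout pool 2 then lay above wildtype pool 3. The difference as deposited was -0.35, or -0.48 relative to the median of all genes, which moves to 0.13 without scaling. The call held in 8 of 21 alternatives and ended in 13, among them the values as deposited (adjusted p = 0.310), the submitters' error model (0.414) and pools 1 and 2 averaged (0.644). It also ended without wildtype pool 1 or 2 or any 1 knockout pool (0.230 to 0.316), while without wildtype pool 3 the adjusted p was 0.0179. The direction was the same in all 21. For Pmel, with 1 probe set, many of these could not change the difference. They alter only the variance model, filter, threshold, probe set choice or a block by pool number. Within the sets of arrays the difference was -0.23 and -0.81.

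The members lie on separate chromosomes except for Rpe65 and Lrat, both on chromosome 3: Tyrp1 is on 4, Mitf on 6, Tyr on 7, Pmel on 10, Dct on 14, Slc45a2 on 15, Ttr on 18 and Mlana on 19 (RefSeq, GRCm38.p6). In this annotation the span of Pmel overlaps those of Rab5b, Cdk2 and Dgka. None of these was called, with differences of -0.15, -0.18 and 0.09. Of the other members, Ttr and Mitf overlap Gm16090 and Gm15531, and Lrat overlaps Rbm46os.

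The remaining melanosome proteins showed small differences. Mlana, which helps Pmel mature, was dim, with 5.92, 6.12 and 5.85 in wildtype and 6.31, 6.28 and 6.05 in knockout pools. Knockout pool 3 lay below wildtype pool 2, and the difference was 0.25 (interval -0.13 to 0.63). Slc45a2, a transporter that tunes melanosome acidity, stood at 6.63, 6.74 and 6.21 in wildtype and at 6.20, 6.31 and 6.64 in knockout pools. The difference was -0.14 (interval -0.59 to 0.30, limma adjusted p = 0.891). Its dimmer probe set differed by -0.01 and ran against the brighter one over the pools (r = -0.71 over 6 arrays).

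**Figure D4:**
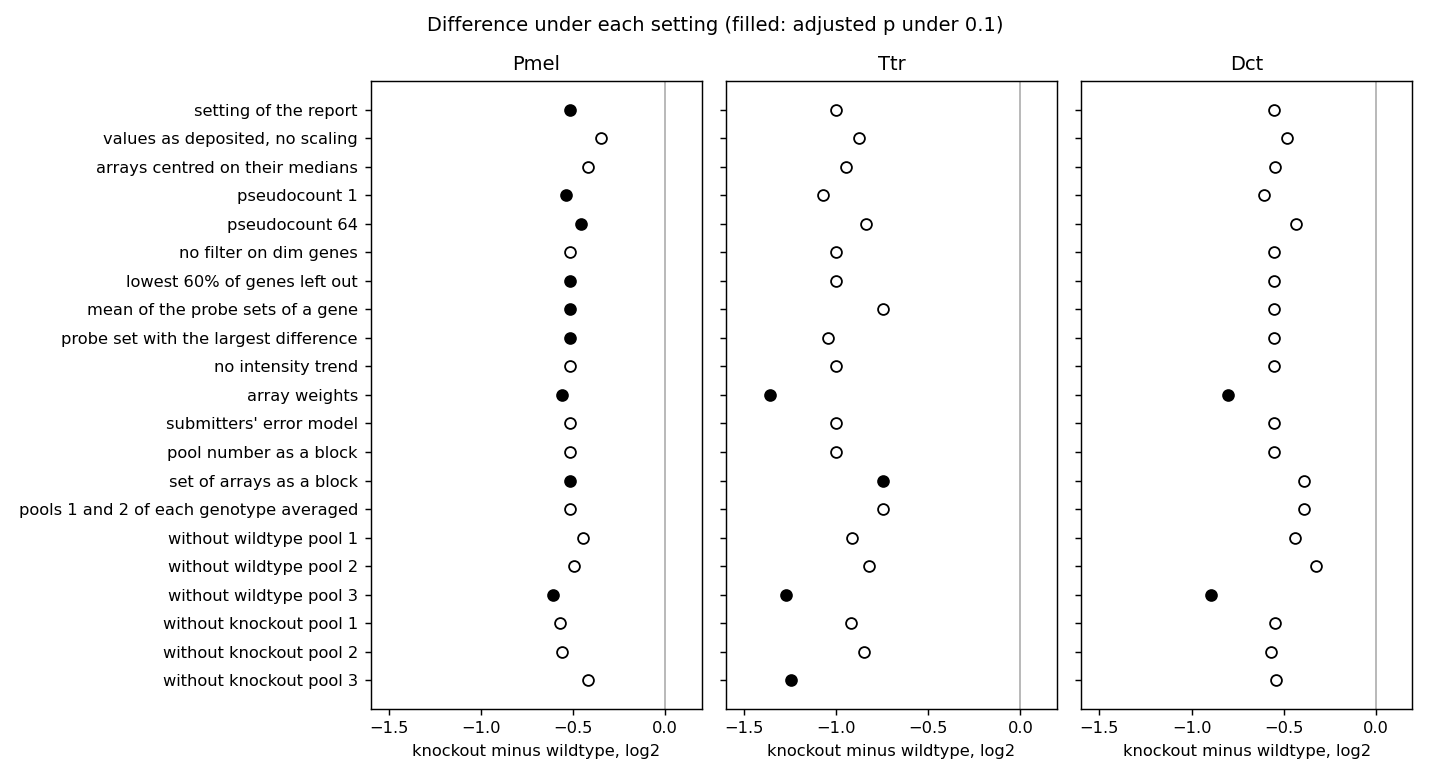
Knockout minus wildtype difference of Pmel, Ttr and Dct in log2 units under the setting of the report and 20 others, filled where the adjusted p was under 0.1. All differences lie below 0, but settings that change only the variance model, the filter or a block by pool number cannot move them. Without wildtype pool 3 and with array weights all 3 genes are called. Of all 10916 tested genes, these settings called 1055 and 1747 lower, against 287 in the setting of the report.

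Summed over the probe sets that stand for the 10 genes, the normalised signal came to 1535, 1623 and 1151 units for wildtype and to 1014, 1057 and 1078 units for knockout, between 0.0155% and 0.0249% of an array's total. Without Ttr the sums were 924 to 1185 in wildtype and 848 to 931 in knockout pools, which overlap. In RNA from pooled retinas, fewer cells of a type and less RNA per cell cannot be told apart. The tested genes with the profile most like the mean standardised profile of the 6 tested members were Elof1, Limd2, Rassf4, Slc26a2 and Lsm14b (r from 0.996 to 0.998 over 6 arrays, the highest of 10910 genes, a description only). Each had wildtype pools 1 and 2 highest, and none was called.

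Other genes of the pigment pathway were read from lists beside the members. Of 37 genes of melanosome biogenesis, transport and pigment loci, 34 had a probe set and 24 were tested. None was called, and 1 had an unadjusted p under 0.05. The median difference was 0.03, against 0.02 over all 10916 tested genes, of which 222 were called higher and 287 called lower. Those with the highest signal were Bloc1s6 and Ap3s1, which help sort cargo to melanosomes, with differences of -0.21 and 0.03, and Ap3d1, another adaptor subunit, with 0.12. Oca2, the pink-eyed dilution gene, stood at 6.33 ± 0.02 in wildtype and 6.36 ± 0.22 in knockout pools.

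Of 16 visual cycle and retinoid genes, 8 were tested, 1 rose and none fell (median 0.12, with an unadjusted p under 0.05 for 2). Rdh10, which oxidises retinol to retinal, rose 2.37-fold from 8.51 ± 0.09 to 9.76 ± 0.06 (limma adjusted p = 0.00108), and its call held in all 21 alternatives. Rlbp1, the retinal-binding protein of pigment epithelium and Muller glia, was 7.97 ± 0.59 and 9.02 ± 0.42, with an adjusted p of 0.148. Rdh5, an 11-cis-retinol dehydrogenase of the pigment epithelium, differed by -0.28 (adjusted p = 0.519).

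Of 24 other genes enriched in pigment epithelium, 18 were tested, 2 rose and none fell (median 0.32). An unadjusted p under 0.05 was reached by 7 of the 18, all with higher means in knockout pools (Gas6, Cst3, Serpinf1, Itgav, Bsg, Ezr and Pltp), and by 1476 of all 10916 tested genes. Gas6, the ligand that links photoreceptor debris to the receptor Mertk, rose 1.94-fold from 7.16 ± 0.13 to 8.11 ± 0.02 (limma adjusted p = 0.00608), and lost its call only with pools 1 and 2 averaged (adjusted p = 0.180). Cst3, the protease inhibitor cystatin C, rose 1.34-fold (adjusted p = 0.0954) and lost its call in 13 of 21 alternatives (up to 0.439). Gas6 and Cst3 are made by many other cells.

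Of 14 regulators and relatives of Mitf, 11 were tested, none rose and 1 fell (median -0.05, with an unadjusted p under 0.05 for 2). Lhx2, a homeodomain factor of the early optic cup, fell 1.58-fold from 10.01 ± 0.14 to 9.35 ± 0.07 (limma adjusted p = 0.0108). Its call was lost in 2 of 21 alternatives, the submitters' error model and averaged pools (adjusted p up to 0.172). Otx2, which works with Mitf on melanin genes and is also a photoreceptor and bipolar factor, differed by 0.02, and the Mitf relatives Tfe3 and Tfeb by 0.05 and 0.12.

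**Figure D5:**
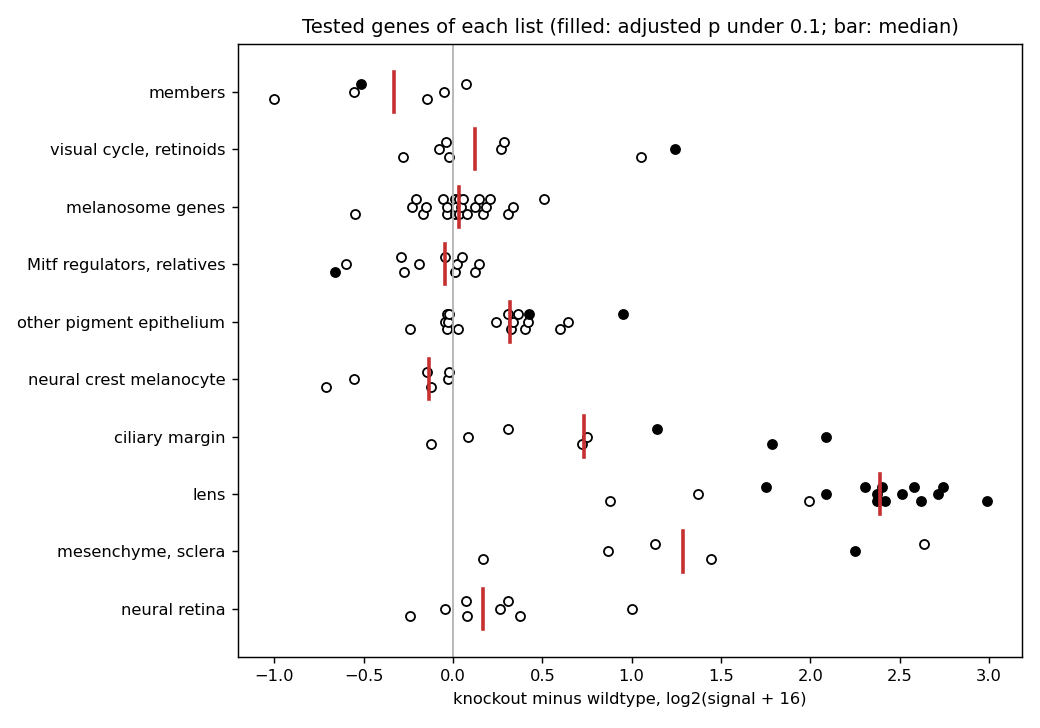
Knockout minus wildtype difference in log2(signal + 16) of each tested gene in the lists, with filled points for an adjusted p under 0.1 and a bar at each list's median. Of the 6 tested members 5 lie below 0 (median -0.33), but over all 10 members, 4 of them too dim to be drawn, the median is -0.04 with 6 below 0. The neural crest list (-0.14) lies below 0, while the lens list (2.39) and the lists of ciliary margin (0.74) and mesenchyme (1.29) lie above it.

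Markers of other eye tissues differed between the same pools. Lens markers summed to 3691 to 10112 units in wildtype and 28275 to 72497 in knockout pools, with wildtype pool 3 lowest and knockout pool 3 highest, and 13 of 16 tested were called higher. Ciliary margin markers summed to 1547 to 1787 and 4418 to 4681 units, with 3 of 8 tested (Col9a1, Ccnd2 and Wfdc1) called higher. Col9a1 was the brightest of the 8, at 9.42 ± 0.03 in wildtype and 11.51 ± 0.04 in knockout pools, and weighs most in these sums. By their means 7 of the 8 were higher in knockout pools and 1 lower, and Msx1 and Opn3 differed by only 0.09 and -0.12. Mesenchyme and sclera markers summed to 536 to 562 and 655 to 2592 units, with Col1a1 called of 6 tested (limma adjusted p = 0.0997, no call in 11 of its alternatives) and knockout pools 1 and 2 far above knockout pool 3. None of 6 tested markers of neural crest melanocytes was called. Ngfr and Kit had an unadjusted p under 0.05 (limma adjusted p = 0.108 and 0.208), as had 1476 of all 10916 tested genes. All 6 had lower means in knockout pools, as did 4986 of all 10916 tested genes. Kit and Ngfr had the largest differences (-0.71 and -0.55), while Mc1r, Ednrb, Sox10 and Erbb3 differed by -0.15, -0.13, -0.03 and -0.02. The neural crest markers summed to 759 to 887 units in wildtype and 630 to 678 in knockout pools. Neural retina markers summed to 5133 to 5835 and 6300 to 6463 units, with none of 8 called (4 had an unadjusted p under 0.05). Neither the 4 endothelial nor the 4 macrophage markers tested were called (median differences -0.02 and 0.06), and both red blood cell markers with a probe set were too dim to test. The choroid plexus markers Kl, Folr1, Aqp1 and Kcne2 were too dim to test. Of the 3 tested, Clic6 and Otx2, the latter also a photoreceptor factor, differed by 0.18 and 0.02 beside the -1.0 of Ttr. The part of these tissues in the levels of Pmel, Ttr and Dct was not tested.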

How the data were processed

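Retinal RNA of 6 pools was labelled with biotin and read on Affymetrix arrays, per the labels' protocols. The authors deposited linear intensity values, 1 for each probe set on each array. How probes were summarised and scaled is not given in the sources used here. Of 45101 probe sets, 64 controls were left out, and only the 34945 with 1 gene symbol in the platform annotation were named, 34741 of them through RefSeq names (GRCm38.p6). Median log2 signal differed between arrays (5.34 to 5.66), so signals were quantile normalised, floored at 1 and taken to log2(value + 16), which shrinks the differences of dim genes. The probe set with the highest mean stood for its gene, and genes in the lowest 40% by mean were left untested. Genotypes were compared with limma 3.58.1 in R 4.3.3 (lmFit, eBayes with an intensity trend, two-sided, no covariate) with Benjamini-Hochberg adjustment over all genes and a threshold of 0.1, the rate that the labels state. The same fit over all single-gene probe sets, without a filter, gave the values of dim members. The fit was tested on simulated data. The labels' own error model (averaging window of 200, 5 Bayesian degrees of freedom, top 1% of error variances dropped) was written from its settings as an alternative, beside other scalings, pseudocounts, filters, probe set choices, blocks, array weights and leaving out each array. The sets of arrays follow the brightness of the BioB and BioC controls, with the cut fixed by rank.

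All probe sets of the 10 members were named. From each of the 4 pigment pathway lists, called genes were named, or, where none was called, the 3 tested genes with the highest mean. Lists of markers of other tissues are given by counts and sums, with a few genes named. Rlbp1, Rdh5, Oca2, Otx2, Serpinf1, Itgav, Bsg, Ezr, Pltp, Tfe3, Tfeb and Tubb3 were added after their values were seen. So were Kit, Ngfr, Mc1r, Ednrb, Sox10, Erbb3, Msx1, Opn3, Clic6, Kl, Folr1, Aqp1, Kcne2 and the genes overlapping Pmel. The members and lists were chosen with earlier results of these data known. Promoter windows came from RefSeq, and figures were drawn with matplotlib 3.10.9.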

Additional observations from a re-analysis of the deposited data

How the results depend on the processing

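Over 21 alternatives Pmel, Ttr and Dct were lower in knockout pools in all, and Slc45a2 in all 20 that tested it. Alternatives that change only the variance model, the filter, the threshold or a block by pool number cannot change a difference. Their sign was therefore fixed in advance. Slc45a2 differed by only -0.001 with blocked array sets and with averaged pools. The number of members called lower was 1 in the fit reported and 0 with the values as deposited, with arrays centred on their medians, with no filter on dim genes, with no intensity trend, with the submitters' error model, with pools 1 and 2 averaged and at a threshold of 0.05. It was 4 with array weights (Ttr, Dct, Pmel and Slc45a2), 2 when array sets were blocked (Ttr and Pmel), and 0 to 3 without any 1 pool, 3 being without wildtype pool 3. Of all 10916 tested genes, 287 were called lower in the fit reported. The same count was 1747 with array weights, 433 with blocked array sets and 1055 without wildtype pool 3. No member was called higher under any of them. Of the 20 probe sets 0 were called lower in the fit reported, 5 with array weights, 2 when array sets were blocked, and 0 to 4 without any 1 pool. The difference of Tyr turned to 0.056 with values as deposited, 0.027 with the mean of its probe sets and 0.11 with array weights, and ran from -0.17 to 0.054 without any 1 pool, highest without wildtype pool 3. That of Tyrp1 turned to -0.044 with array weights and ran from -0.063 (without wildtype pool 3) to 0.146 without any 1 pool. The causes were not tested.

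Over all genes tested, 222 were called higher and 287 called lower (43.6% of calls higher). With values as deposited these were 416 and 176 (70.3%), with array weights 1857 and 1747, with the submitters' error model 88 and 120, with blocked array sets 597 and 433, with averaged pools 17 and 26, and at 0.05 127 were higher. With centred arrays 135 were lower, and 53.6% of calls were higher. Without any 1 pool there were 68 to 862 higher and 99 to 1055 lower. The values showed no pairing by pool number. Deviations from the group means correlated at 0.17, -0.35 and -0.48 for numbers 1, 2 and 3, and 1 of 6 arrays was closest to its own number. With so few pools this cannot exclude that pools of a number shared a litter or a batch. With the replicate block 126 genes were higher and 143 lower and 0 members were called, Pmel at an adjusted p of 0.100. The number of arrays limits the precision, and signals near the floor have no order.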
